A study of Danio rerio with 3 samples.

Results

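Whole zebrafish embryos that had received the ethanol vehicle were compared between 12 and 5 hours post fertilisation (hpf), which spans the end of the maternal programme, gastrulation and the start of somite formation. The values are the green (Cy3) channel of 2-colour oligonucleotide arrays, read as signal minus local background. The members are the probes whose signal exceeded the mean plus 2 SD of the negative control spots at one stage or more. They are 35654 of 43603 probes on the array and stand for 21886 of 27216 gene names. Of these genes, 17267 had a probe above the cutoff at both stages and have a measured change. A further 2221 were above it at 12 hpf only, 2307 at 5 hpf only, and 91 had different probes above it at different stages and were set aside.

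The series followed embryos bathed in the steroid cortisol or in its vehicle, with 1 deposited set of values per stage at 5, 12 and 24 hpf. Both vehicle groups were wild type embryos of fish bought from a local pet shop, bathed from 0 to 2 hpf in water with 2 ml of absolute ethanol per litre and then raised at 28.5 °C. One group was fixed at 12 hpf and the other at 5 hpf. The submitters state 3 replicates at 12 hpf, 4 at 5 hpf and 1 at 24 hpf. A single value per spot stands for each stage, so the spread between replicates is unknown and nothing below was tested. How many embryos went into an extract is not stated in the labels. The deposited 12 and 5 hpf files carry different slide numbers, so that slide and stage cannot be told apart. The cortisol-treated embryos (13.8 µM, which is 5 mg/L) in the red (Cy5) channel of the same arrays give a second measurement of the stage change, and vehicle embryos at 24 hpf show where a gene went later.

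The early zebrafish embryo runs on messenger RNA stored in the egg. Its own genome is then switched on under transcription factors that include Nanog, Pou5f3 and Sox19b, and stored transcripts are cleared, in part through the microRNA miR-430. During gastrulation Nodal, Bmp, Wnt and Fgf signals set up the germ layers and axes, and in the segmentation period that follows the neural plate is regionalised, somites form at the tail end and Hox genes mark positions along the body.

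Across 17267 genes, 3996 were at least 2-fold higher at 12 than at 5 hpf, which is 23.1% of them, and 4680 were at least 2-fold lower, which is 27.1%. At 4-fold these shares were 10.8% and 11.3%. In what follows "rose" and "fell" mean past 2-fold (a log2 change of 1 or more, or of -1 or less), which is a rule of size and not a test, and each group of genes is to be read against these shares. The middle of the distribution lay near 0, with a median log2 change of -0.11, and the 5th and 95th percentiles were -2.91 and 3.0. Within 1.5-fold lay 31.5% of genes. Since the arrays were given the same distribution of signals, every change is relative to the RNA pool of its stage, and a change in the total messenger RNA of an embryo would not be seen. The number of calls depended on how dim signals were treated: with the normexp background correction 2467 genes were higher and 2649 lower. In whole embryos, fewer cells of a type and less RNA per cell cannot be told apart.

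**Figure D1:**
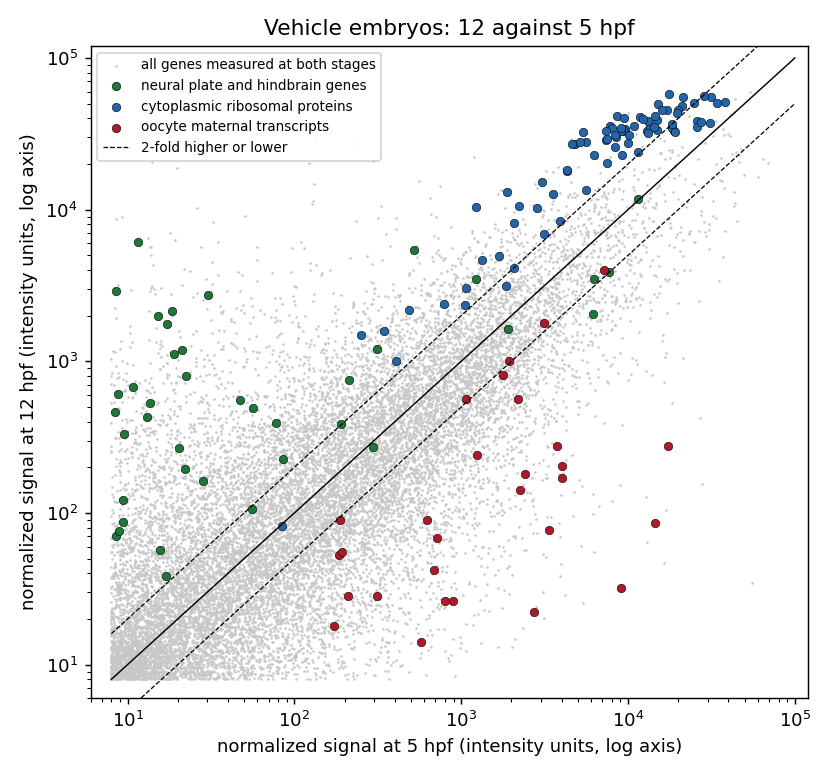
Normalized signal at 12 hpf (vertical) against 5 hpf (horizontal), both log axes in intensity units, for the 17267 genes measured at both stages (grey) and for 3 gene lists (coloured). The solid line marks equal signals and the dashed lines 2-fold, and most oocyte transcripts lie below the lower line while the neural plate genes spread up the left side.

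Different probes of a gene measured at both stages differed by a pooled SD of 0.935 log2 units over 6891 genes with more than 1 such probe, and replicate spots of a probe by 0.246 over 25 probes. Of the 3408 genes with several probes that were past 2-fold, 3210 had all probes on the same side of 0. This count is in part fixed by the choice of genes, since the mean of their probes had to be past 2-fold. Among all 6891 genes, 1302 had probes on both sides of 0 that lay more than 1 log2 unit apart. For a gene with a single probe, the choice of probe alone can thus shift the change by about 0.935 log2 units, close to 2-fold. This spread between probes does not include variation between replicates, which is unknown. Members of close families, such as keratins, globins and egg envelope proteins, may share hybridisation. The 12 and 5 hpf arrays were alike in brightness, with 31951 and 31935 probes above the cutoffs of 8.44 and 7.41 intensity units.

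**Figure D2:**
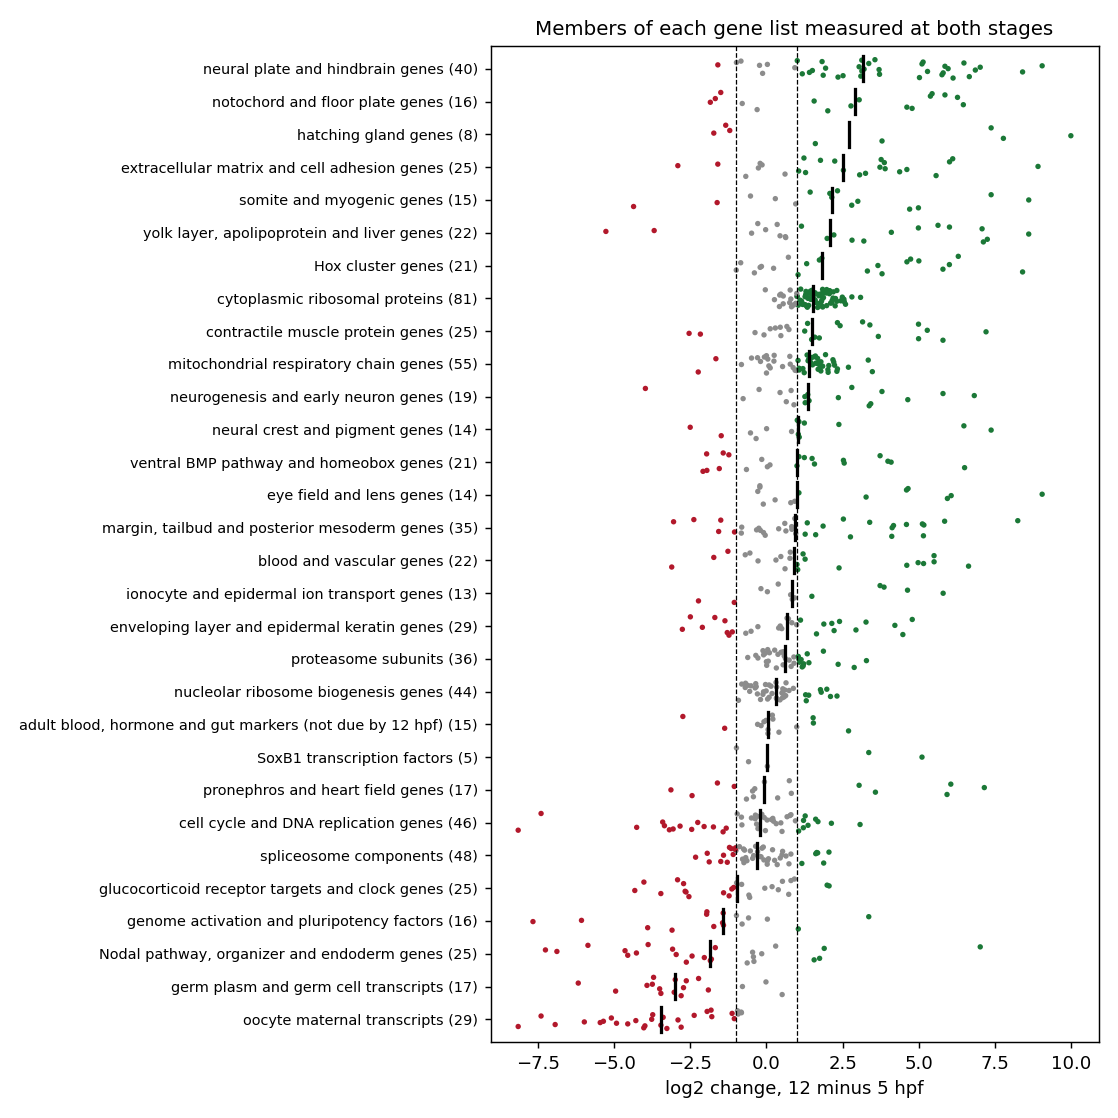
Log2 change, 12 minus 5 hpf, of every member measured at both stages (points) in 30 gene lists, ordered by their median (black bar), with the number of measured members in brackets. Green points rose and red points fell by 2-fold or more, grey points did neither, and the medians run from -3.46 for oocyte transcripts to 3.17 for neural plate genes.

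Oocyte transcripts, which the mother loads into the egg, had the lowest median of the 30 lists over genes measured at both stages. Of 29 measured at both stages, 25 fell, 20 of them by 4-fold or more, and 0 rose, with a median log2 change of -3.46 against -0.11 for all genes. The cyclin A1 gene ccna1 had a normalized signal of 31.9 at 12 hpf, against 9065 at 5 hpf, a log2 change of -8.15. The kinase gene wee2, known in mouse to hold the oocyte in meiosis, had a signal of 86.2 at 12 hpf, against 14554 at 5 hpf (log2 change -7.4). The maternal linker histone gene h1m had a signal of 275 at 12 hpf, against 17328 at 5 hpf (log2 change -5.98), and the RNA-binding zinc finger gene cth1 a signal of 22.2 at 12 hpf, against 2721 at 5 hpf (log2 change -6.94). All 4 genes were bright at 5 hpf and had lost most of their signal by 12 hpf, though each was still above the cutoff.

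Further oocyte genes fell by smaller amounts. The log2 change was -5.46 for the transcription factor IIIA gene gtf3ab, -4.92 for gdf9 and -3.27 for bmp15, which encode growth factors secreted by the oocyte. The log2 change was -4.03 for btg4, known in mouse as an adaptor that helps to remove maternal messages, and -2.9 for the meiotic kinase gene mos. The signals of btg4 were 42.4 at 12 hpf, against 690.4 at 5 hpf. For zar1l and zar1, whose proteins bind messages stored in the oocyte, the log2 changes were -3.73 and -2.37. The egg envelope genes of this list had smaller changes. Of these, zp3.2, zp3b and zp2.2 fell, with log2 changes from -1.95 to -1.13. Short of 2-fold were zp3a.1, zp2.1, zp2.5 and zp2.3, with log2 changes from -0.95 to -0.82. The signal of zp2.5 was 4011 at 12 hpf, against 7128 at 5 hpf. These 4 were the only measured members of the list short of 2-fold. Over the 18 genes with a zp symbol measured at both stages, 11 fell and 0 rose (median log2 change -1.88). That grouping by symbol was made after the values were seen. The histone message-binding gene slbp2 and larp6b were above the cutoff at 5 hpf only, at least 22.4-fold and 19.6-fold lower at 12 hpf.

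Transcripts of the germ plasm, the maternal cytoplasm that founds the germ line, were mostly lower as well. Of 17 measured, 14 fell and 0 rose, with a median log2 change of -2.99. The RNA helicase gene ddx4, known as vasa, had a signal of 24.5 at 12 hpf, against 759 at 5 hpf (log2 change -4.95). The piwi genes piwil1 and piwil2, whose proteins bind the small RNAs that silence transposons, changed on the log2 scale by -3.92 and -3.75. The tudor domain genes tdrd9, tdrd6a, tdrd1 and tdrd7a ranged from -3.71 to -2.23, and the germ cell genes dazl and dnd1 had log2 changes of -3.03 and -1.91. By contrast nanos3, needed for the survival of primordial germ cells, had a signal of 524 at 12 hpf, against 903 at 5 hpf, a log2 change of -0.79 that did not reach 2-fold, and celf1 had a log2 change of 0.52. The largest decrease in this list was that of rgs14a, with a signal of 8.5 at 12 hpf, against 616 at 5 hpf (log2 change -6.18), but in the cortisol channel its log2 change had the opposite sign (2.4).

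Among 16 factors of genome activation and pluripotency, 10 fell and 2 rose. The homeobox gene nanog had a signal of 63.9 at 12 hpf, against 12970.2 at 5 hpf (log2 change -7.67, with probes at -7.7 to -7.63), and the POU factor gene pou5f3 a signal of 119 at 12 hpf, against 8039 at 5 hpf (log2 change -6.07). The Nodal effector gene foxh1 had a log2 change of -3.9, and the maternal T-box gene eomesa one of -3.1, with probes from -5.18 to -1.01 and a signal of 9.49 at 12 hpf, against 81.3 at 5 hpf. Over 3 stages normalized together, the signals of nanog were 11257, 55.4 and 22.6 at 5, 12 and 24 hpf and those of pou5f3 7088, 106 and 85.1. At 24 hpf not every probe of pou5f3 was above the cutoff. A probe below it was set to the lowest measured signal, so 85.1 is not a measured level. Most of the fall of both genes lay between the first 2 stages.

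The 6 SoxB1 genes, the family of transcription factors to which Sox19b belongs, did not move together. The maternally supplied sox19b had a signal of 882 at 12 hpf, against 1323 at 5 hpf (log2 change -0.59), but its 3 probes ran from -1.92 to 0.18. The early zygotic sox19a and sox3 had log2 changes of 0.03 and -0.98, with sox3 just short of 2-fold and a signal of 3897 at 12 hpf, against 7706 at 5 hpf. In the neural plate regulator sox2 the signal was 5391 at 12 hpf, against 524 at 5 hpf (log2 change 3.36), and in sox1a it was 329 at 12 hpf, against 9.53 at 5 hpf (log2 change 5.11). The remaining member, sox1b, was above the cutoff at 12 hpf only and at least 156-fold higher there. In vehicle embryos no gene of this family fell past 2-fold and 3 rose. In the cortisol channel sox19b did fall (log2 change -1.39), while sox2 and sox1a rose there too (4.06 and 5.68).

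**Figure D3:**
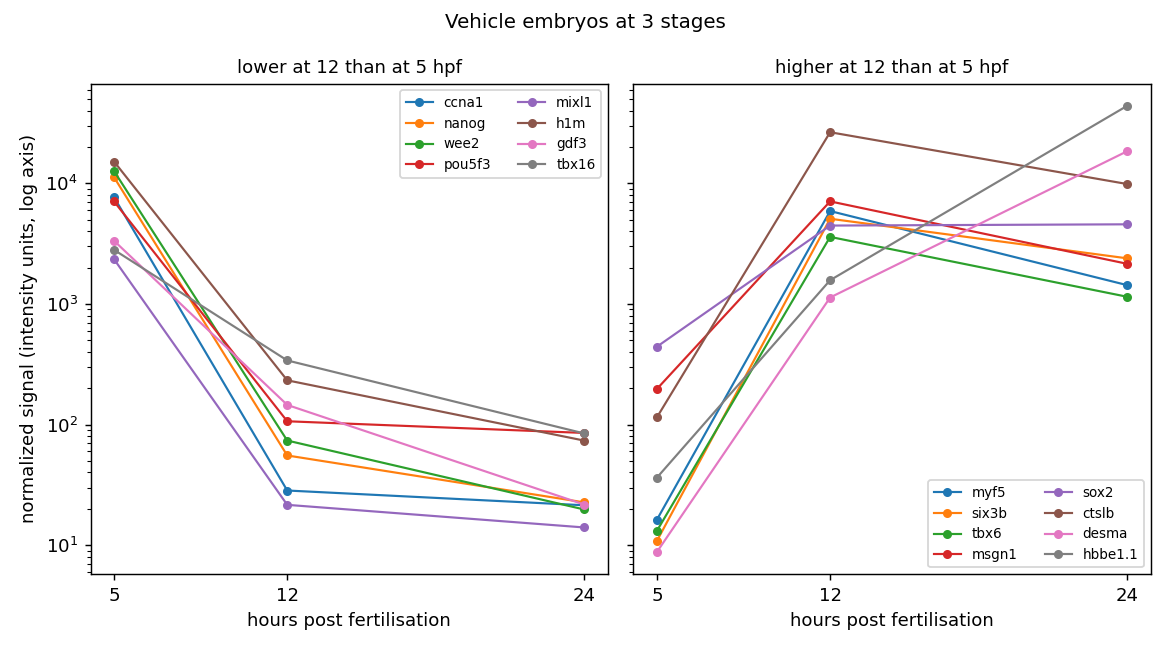
Normalized signal (log axis, intensity units) of 8 genes that fell (left) and 8 that rose (right) between 5 and 12 hpf, at 5, 12 and 24 hpf, with 1 value per stage and no error bars. In the left panel every line drops to 12 hpf, and in the right panel desma and hbbe1.1 go on upward to 24 hpf while myf5, tbx6, six3b, msgn1 and ctslb turn down and sox2 stays level. At 24 hpf ccna1, pou5f3 and mixl1 had probes below the cutoff, which were set to the lowest measured signal before averaging.

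Genes of the Nodal pathway, the organizer and the endoderm were mostly lower at 12 hpf. Of 25 members measured at both stages, 15 fell and 4 rose, with a median log2 change of -1.84. Of the ligand genes, ndr1 was above the cutoff at 5 hpf only, with a signal of 1049, at least 131-fold lower at 12 hpf, and ndr2 had a log2 change of -3.08, which was -1.19 with normexp background correction and -0.09 in the red channel (cortisol embryos). The ligand partner gene gdf3 (Vg1) had a signal of 171 at 12 hpf, against 4017 at 5 hpf (log2 change -4.55), and the co-receptor gene tdgf1 a signal of 866 at 12 hpf, against 12782 at 5 hpf (log2 change -3.88). The feedback inhibitors parted, with lft2 at a log2 change of -4.27 and lft1 at -0.15. Among targets, the homeobox genes mxtx2, which acts in the yolk syncytial layer, and mixl1 had a signal of 13.1 at 12 hpf, against 2005 at 5 hpf (log2 change -7.26), and a signal of 23.9 at 12 hpf, against 2813 at 5 hpf (log2 change -6.88). The endoderm determinant sox32 had a log2 change of -5.86, the organizer gene gsc one of -2.96 and the notochord homeobox gene noto one of -1.68 with a signal of 2194 at 12 hpf, against 7019 at 5 hpf.

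Other organizer genes behaved differently. The Bmp antagonist chrd had a log2 change of -0.63, the Wnt antagonist dkk1b one of -0.41, and the antagonists nog1 and frzb ones of 1.9 and 1.75. The forkhead genes of axial tissue differed, foxa and foxa3 with log2 changes of -1.84 and -1.81 and the floor plate gene foxa2 at 1.57. The largest rise of the list was that of otx2b, which marks the forebrain and midbrain, with a signal of 1979.8 at 12 hpf, against 15.2 at 5 hpf (log2 change 7.02). In addition sebox and dharma, 2 early homeobox genes, were above the cutoff at 5 hpf only, at least 38.4-fold and 23.1-fold lower at 12 hpf.

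On the ventral side, 11 of 21 genes rose and 6 fell, against 23.1% and 27.1% of all genes. The ligand genes bmp2b, bmp7a and bmp4 had log2 changes of -1.95, -1.55 and -0.65, and the ventral repressor genes vent, vox and ved ones of -1.96, -1.42 and -1.23. Among those that rose were genes of the ectoderm and of Bmp feedback. The preplacodal homeobox gene dlx3b had a signal of 2874 at 12 hpf, against 31.6 at 5 hpf (log2 change 6.51), msx1b and msx3, which mark the neural plate border, had log2 changes of 4.1 and 3.99, and the epidermal factor gene tp63 one of 3.73 with probes from 1.86 to 5.82. The Bmp-induced genes id3 and smad6a had log2 changes of 2.56 and 2.53, and the tolloid inhibitor szl one of 1.5 (in the cortisol channel -0.15).

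In the margin, tailbud and posterior mesoderm list 16 of 35 rose and 5 fell. The early mesoderm T-box gene tbx16 had a signal of 402 at 12 hpf, against 3324 at 5 hpf (log2 change -3.05) and tbxta, the brachyury gene, a signal of 2092 at 12 hpf, against 5911 at 5 hpf (log2 change -1.5, but -0.07 in the red channel of cortisol embryos), whereas the later T-box genes tbx6 and tbx16l had a signal of 4339.8 at 12 hpf, against 14.2 at 5 hpf (log2 change 8.26), and a signal of 5598 at 12 hpf, against 96.8 at 5 hpf (log2 change 5.85). The presomitic gene msgn1 had a signal of 8383 at 12 hpf, against 233 at 5 hpf (log2 change 5.17, over 5 probes from 4.63 to 5.57), and the posterior homeobox genes cdx4 and cdx1a had log2 changes of 5.16 and 4.12. Genes of the somite boundary rose, with mespba at a log2 change of 4.17, ripply1 at 4.6 and ripply2 at 5.12. The oscillating genes of the somite clock differed, her12 at a log2 change of 4.13, her1 at 0.4 and her7 at -0.81. Retinoic acid enzymes differed too, with the synthesising aldh1a2 at a log2 change of 2.76 and the degrading cyp26a1 at -0.04. The Fgf ligand fgf8a had a log2 change of 0.84 and its feedback target spry4 one of 3.39.

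Many somite and muscle genes were above the cutoff at 12 hpf only or rose. Of 29 somite and myogenic genes on the array, 15 were measured at both stages (10 rose and 2 fell). A further 9 were above the cutoff at 12 hpf only, 2 at 5 hpf only and 3 at neither. The myogenic factor gene myf5 had a signal of 7060.4 at 12 hpf, against 18 at 5 hpf (log2 change 8.62, both probes within 8.56 to 8.67). Its relatives myod1, myog and myf6 were above the cutoff at 12 hpf only, at least 169-fold, 34.4-fold and 10.2-fold higher. The somite genes meox1 and six1b were at least 185-fold and 174-fold higher, foxc1a had a signal of 4304 at 12 hpf, against 135 at 5 hpf (log2 change 4.99), and prdm1a, which slow muscle and the hatching gland share, a signal of 3933 at 12 hpf, against 23.6 at 5 hpf (log2 change 7.38). The fusion gene mymk had a log2 change of 2.15, and jam2a, another fusion gene, fell (log2 change -4.36) from a single probe.

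Of 25 contractile protein genes measured at both stages, 15 rose and 2 fell. A further 7 were above the cutoff at 12 hpf only, 4 of them at least 2-fold higher by their bound. Another 3 were above it at 5 hpf only, 1 of them at least 2-fold lower. The intermediate filament gene desma had a signal of 1358 at 12 hpf, against 9.15 at 5 hpf (log2 change 7.21), the actin genes acta1a and actc1a a signal of 6136 at 12 hpf, against 110.2 at 5 hpf (log2 change 5.8), and a signal of 10497 at 12 hpf, against 329 at 5 hpf (log2 change 5.0), and the troponin gene tnni2b.1 had a log2 change of 5.0. Probes of acta1a spread from 0.53 to 8.8 in log2 change, and those of actc1a from 2.41 to 8.95. The slow myosin gene smyhc1 and the titin gene ttnb were at least 27.9-fold and 45.8-fold higher. In contrast the fast myosin light chain gene mylpfa (log2 change 0.29), mylz3 (log2 change 0.46) and myhz1.1 (log2 change 0.74) did not reach 2-fold, with signals of 10.6, 25.6 and 23.4 at 12 hpf. At 5, 12 and 24 hpf desma had 8.77, 1131 and 18467. From 12 to 24 hpf the contractile list had a median log2 change of 5.07, over 24 genes with the 3 stages normalized together. From 5 to 12 hpf it was 1.49, over 25 genes with those 2 stages normalized alone.

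Over genes measured at both stages, neural plate and hindbrain genes had the highest median of the 30 lists. Of 40 measured at both stages, 33 rose, 26 of them by 4-fold or more, and 1 fell, with a median log2 change of 3.17. A further 7 were above the cutoff at 12 hpf only. The forebrain gene six3b had a signal of 6121 at 12 hpf, against 11.5 at 5 hpf (log2 change 9.06), and the isthmus gene gbx2 a signal of 1189 at 12 hpf, against 21.2 at 5 hpf (log2 change 5.81). Of the hindbrain genes, egr2b, which marks rhombomeres 3 and 5, had a signal of 4186 at 12 hpf and was at least 523-fold higher there, mafba had a log2 change of 6.86 and hoxb1b one of 8.41. The secreted floor plate signal shha and the ventral spinal cord gene olig2 had log2 changes of 5.86 and 5.97. The gene that fell was sox11b at a log2 change of -1.59, and zic2b was lower without reaching 2-fold, at -0.83.

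Genes of neurogenesis, by which neurons form in the plate, were also higher in many cases. Of 19 measured at both stages, 12 rose and 1 fell, and 10 more were above the cutoff at 12 hpf only. The proneural gene neurog1 had a signal of 620.3 at 12 hpf, against 11.1 at 5 hpf (log2 change 5.8), and ascl1b, neurod1 and neurod4 were at least 71.3-fold, 48.3-fold and 33-fold higher. The Notch ligand gene dla was at least 47.3-fold higher and dlb had a log2 change of 3.43. Among hairy-related repressors of neurogenesis, her9 had a signal of 14836 at 12 hpf, against 131 at 5 hpf (log2 change 6.83), her3 had a log2 change of 4.64 and her4.1 was at least 109-fold higher, whereas the midbrain gene her5 had a log2 change of -0.76. Among genes of differentiating neurons, elavl3 was at least 7.84-fold higher and gap43 had a log2 change of 1.4. The change of snap25a was -0.24, with signals under 15 intensity units at both stages. The 1 member of the list that fell was stmn2a, with a single probe. Its signal was 9.9 at 12 hpf, against 156 at 5 hpf (log2 change -3.97).

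In the eye field and lens list 7 of 14 rose and 0 fell. The regulator genes six3a and pax6b had log2 changes of 6.07 and 5.94, mab21l2 was at least 364-fold higher and rx1, rx2 and rx3 at least 14.5-fold, 12.8-fold and 7.08-fold. Of the genes of the later retina and lens, vsx1 had a log2 change of -0.21, cryba2a one of -0.1, and cryaa and cryba1b were above the cutoff at neither stage. In the red channel, which holds RNA of cortisol embryos, cryba2a had a log2 change of 7.64.

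Hox genes, which lie in clusters and are switched on in the order of their position, were in most cases below the cutoff at 5 hpf. Of 48 on the array, 21 were above the cutoff at both stages and 24 at 12 hpf only, 1 at 5 hpf only and 2 at neither. Counting a lower bound of 2-fold as a rise, all 14 genes of paralog groups 1 to 4 rose, 19 of 21 of groups 5 to 10, and 4 of 13 of groups 11 to 13. These counts are in part fixed by the filter, since a gene above the cutoff at 12 hpf only cannot fall. Of the 21 measured at both stages 14 rose and 0 fell, against 23.1% and 27.1% of all genes. Of the 24 at 12 hpf only, 23 were at least 2-fold higher by their bound, beside 1049 of 2221 over all genes. At the anterior end hoxb1b had a signal of 2898 at 12 hpf, against 8.5 at 5 hpf (log2 change 8.41) and hoxc3a a signal of 1105 at 12 hpf, against 17.1 at 5 hpf (log2 change 6.01). In the middle hoxb8b had a log2 change of 5.8 from a 5 hpf signal of 8.85, next to the floor. There hoxb7a was at least 84.8-fold higher, and hoxd9a had a signal of 1227 at 12 hpf, against 15.6 at 5 hpf (log2 change 6.3).

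At the posterior end hoxb13a, hoxc13a and hoxc12b had log2 changes of -0.39, -0.16 and -0.21, within a few units of the floor at both stages, but hoxd11a rose (log2 change 4.74) and hoxa13b was at least 4.8-fold higher. The exceptions in the middle were hoxc6a and hoxb8a, with a signal of 855 at 12 hpf, against 1534 at 5 hpf (log2 change -0.84), and a signal of 142 at 12 hpf, against 282 at 5 hpf (log2 change -0.99). Both depended on the filter: with every probe kept, hoxc6a had a log2 change of 1.35 and hoxb8a one of 2.26. For genes measured at both stages the median log2 change was 1.82, and with the others at their bounds it was 3.68 over 46 genes. The direction of those others was fixed by the stage at which they passed the filter. Only 3 Hox genes were above the median signal at both stages, and over those the median was -0.84.

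**Figure D4:**
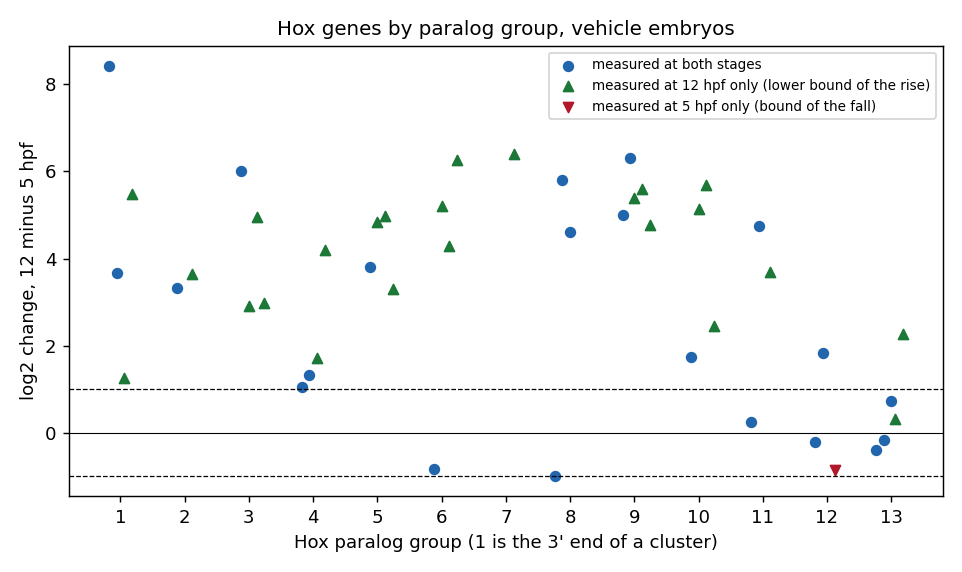
Log2 change, 12 minus 5 hpf, of Hox genes by paralog group, where circles are genes measured at both stages and triangles are bounds for genes measured at 1 stage. Dashed lines mark 2-fold, and most points of groups 1 to 10 lie above the upper line while those of groups 12 and 13 lie mostly between the lines. The direction of a bound was fixed by the stage at which the gene passed the filter.

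Notochord and floor plate genes included both directions: 11 of 16 rose and 3 fell. The 3 that fell were tbxta, noto and foxa, early regulators given above. Genes of the formed notochord rose, the collagen genes col9a2 and col2a1a with log2 changes of 6.47 and 4.61, the notochord gene ntd5 at 6.28 with a signal of 4620.2 at 12 hpf, against 59.6 at 5 hpf, plod1a, a collagen-modifying enzyme, at 5.39, and the caveolin gene cav1 at 4.79. The 5 hpf signal of col9a2 was 8, the lowest measured one, and its log2 change ran from 3.32 to 7.11 over the alternative runs. The ciliary regulator foxj1a had a log2 change of 3.05. The list's median log2 change of 2.91 became -0.79 over the 7 members above the median signal at both stages, which leaves out genes that were dim at 5 hpf.

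In the neural crest and pigment list 8 of 14 genes measured at both stages rose and 2 fell. A further 7 were above the cutoff at 12 hpf only, and 6 of these were at least 2-fold higher by their bound. Another 3 were above it at 5 hpf only, each at least 2-fold lower at 12 hpf. The crest regulator sox10 had a signal of 1336 at 12 hpf, against 14.9 at 5 hpf (log2 change 6.49), and twist1a was at least 85-fold higher. The genes tfap2a, tfap2c and foxd3, which act earlier, rose to a smaller extent with log2 changes of 1.25, 1.07 and 1.05, and snai2 fell (log2 change -2.5). Pigment genes were near or below the cutoff, with mitfa below it at both stages and dct at a log2 change of 1.08 from signals of 16.9 at 12 hpf, against 8 at 5 hpf.

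Of 22 blood and vascular genes 11 rose and 3 fell, with a median log2 change of 0.89. Over members above the median signal at both stages it was -0.98. The endothelial and blood regulators etsrp (etv2), lmo2 and fli1 had log2 changes of 6.64, 5.51 and 4.61, and gata1a, the erythroid regulator, was at least 8.16-fold higher. The 5 hpf signal of etsrp was 8, the lowest measured one. Its log2 change ran from 3.48 to 7.92 in the 8 alternative runs that gave it a value. The embryonic globin gene hbbe1.1 had a signal of 1894 at 12 hpf, against 41.6 at 5 hpf (log2 change 5.51), and hbae1.1 and hbae3 had log2 changes of 5.16 and 4.98. Normalized with the later stage, hbbe1.1 had 36.3, 1574 and 43952 at 5, 12 and 24 hpf. Genes of formed vessels, kdrl, tie1 and cdh5, did not reach 2-fold, with log2 changes of 0.77, 0.79 and 0.61. The gene drl fell, with a signal of 385 at 12 hpf, against 3324 at 5 hpf (log2 change -3.11).

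Among genes of the heart and kidney fields 5 of 17 rose and 4 fell, against 23.1% and 27.1% of all genes, with a median log2 change of -0.06. The heart field genes nkx2.7, hand2 and the pharyngeal gene tbx1 had log2 changes of 7.16, 5.93 and 6.06, whereas gata6 and gata5, which also act in early endoderm, had log2 changes of -2.44 and -0.43. The kidney genes pax8 and hnf1bb had log2 changes of 3.04 and 3.58, and pax2a was at least 22.3-fold higher. At 5 hpf nkx2.7 and pax8 had signals of 8.2 and 8.5, next to the floor. Over the alternative runs their log2 changes ran from 3.99 to 7.72 and from 0.84 to 3.73.

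The hatching gland, which secretes the enzymes that open the egg envelope, gave some of the largest rises. The hatching enzyme gene he1.2 had a signal of 8699.8 at 12 hpf, against 8.5 at 5 hpf, next to the floor. Its log2 change was at least 6.81 in the 11 alternative runs that gave it a value, and other runs gave none. Its relative he1.1 was at least 361-fold higher. The cathepsin gene ctslb had a signal of 29561 at 12 hpf, against 134 at 5 hpf (log2 change 7.78, with 3 probes from 5.03 to 9.55). The regulators klf17 and xbp1 fell, with log2 changes of -1.73 and -1.34. The hatching gland list had 5 genes that rose and 3 that fell among 8.

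In the enveloping layer and epidermis, 11 of 29 genes rose and 8 fell, against 23.1% and 27.1% of all genes. The keratin genes that rose included krt99 with a signal of 15544 at 12 hpf, against 562 at 5 hpf (log2 change 4.79), krt17 with a signal of 22109.9 at 12 hpf, against 1187 at 5 hpf (log2 change 4.22), krt5 at 2.15, krt4 at 1.89 and cyt1l at 2.94 over 7 probes, while krt94 fell (log2 change -1.36) and krt8 and krt18a.1 lay just under 2-fold at 0.84 and 0.99. The annexin genes parted, anxa1c at a log2 change of 4.48 and anxa1a at -1.23. The adhesion gene epcam fell, with a signal of 841 at 12 hpf, against 5699 at 5 hpf (log2 change -2.76), and so did the claudin genes cldn7b and cldne, with log2 changes of -1.29 and -1.12. The E-cadherin gene cdh1 had a log2 change of -0.68. The protease inhibitor genes spint2 and spint1a had log2 changes of -2.5 and -1.69.

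Of 13 ionocyte genes measured at both stages, 5 rose and 2 fell. A further 4 were above the cutoff at 12 hpf only, and 1 at 5 hpf only was at least 2-fold lower. The ionocyte regulator foxi3a had a signal of 225 at 12 hpf, against 9.05 at 5 hpf (log2 change 4.63), the carbonic anhydrase gene ca2 had a log2 change of 5.8 and the ammonia channel gene rhbg one of 3.86, while gcm2 was at least 23.3-fold higher. The sodium pump genes atp1a1a.1 and atp1a1a.4 fell with log2 changes of -1.06 and -2.23.

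Of 22 yolk layer and plasma protein genes measured at both stages, 13 rose and 2 fell. A further 7 were above the cutoff at 12 hpf only. The lipid-binding gene fabp1b.1 had a signal of 10263 at 12 hpf, against 26.2 at 5 hpf (log2 change 8.62), the lipoprotein genes apobb.1 and apoa1a had log2 changes of 7.26 and 7.13, and apoa1b, apoa2 and apoa4b.1 were at least 113-fold, 103-fold and 175-fold higher. The transferrin gene tfa had a log2 change of 5.64 over 7 probes. The retinol-binding gene rbp4l had one of 7.08, from a 5 hpf signal of 8.95, next to the floor. In contrast apoeb had a log2 change of 0.64 with a signal of 13619 at 12 hpf, against 8769 at 5 hpf, the lipid transfer gene mttp one of -0.02, and the liver regulator hnf4a fell (log2 change -3.69).

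Extracellular matrix and adhesion genes were mostly higher at 12 hpf. Of 25 measured at both stages, 18 rose and 2 fell, with a median log2 change of 2.53. The fibronectin genes fn1b and fn1a had a signal of 6469 at 12 hpf, against 13.3 at 5 hpf (log2 change 8.92), and a signal of 1401 at 12 hpf, against 106 at 5 hpf (log2 change 3.73). The laminin genes lama5, lama1, lamb1a and lamc1 had log2 changes of 6.01, 3.87, 2.24 and 1.78, and the N-cadherin gene cdh2 had a signal of 2160.2 at 12 hpf, against 259 at 5 hpf (log2 change 3.06). The integrin genes itga5 and itgb1b, whose proteins bind fibronectin, had log2 changes of -0.14 and -0.21, and the hyaluronan synthase gene has2 fell (log2 change -2.91).

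Genes that all cells use also moved. Of 81 cytoplasmic ribosomal protein genes 66 rose and 0 fell, against 23.1% and 27.1% of all genes, with a median log2 change of 1.54 and a range from -0.04 to 3.09. For example rplp1 had a signal of 10477 at 12 hpf, against 1228 at 5 hpf (log2 change 3.09) and rps10 a signal of 13103 at 12 hpf, against 1872 at 5 hpf (log2 change 2.81), while rpl12 and rps14, bright at both stages, had log2 changes of 0.43 and 0.55. Mitochondrial respiratory chain genes moved the same way, with 35 of 55 rising, 2 falling and a median log2 change of 1.39. The complex I gene ndufs4 had a signal of 5137 at 12 hpf, against 506 at 5 hpf (log2 change 3.34) and cox6c had a log2 change of 2.33, but atp5mc1 fell (log2 change -2.24) with a signal of 2567 at 12 hpf, against 12113 at 5 hpf.

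Genes of the proteasome, which degrades proteins, were mostly within 2-fold. For its subunits 13 of 36 rose and 0 fell (median log2 change 0.6), led by psmb6 at a log2 change of 3.29 and psma1 at 2.88. Nucleolar ribosome biogenesis genes had 8 of 44 that rose, a share below that of all genes, and 0 that fell (median log2 change 0.32), with gnl3l at a log2 change of 2.32 and the RNA polymerase I gene polr1b at 1.98. In the spliceosome 11 of 48 genes fell and 6 rose, against 27.1% and 23.1% of all genes (median log2 change -0.32). Its core Sm genes parted, snrpg, snrpe and snrpf with log2 changes of 2.05, 1.68 and 1.65 but snrpd3 at -1.94 with a signal of 5334 at 12 hpf, against 20506 at 5 hpf.

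Of 46 cell cycle genes 14 fell (30.4%) and 9 rose (19.6%), near the shares of all genes (27.1% and 23.1%), with a median log2 change of -0.21. The mitotic cyclin genes ccna2, ccnb2 and ccnb1 had a signal of 404 at 12 hpf, against 3679 at 5 hpf (log2 change -3.19), a signal of 956 at 12 hpf, against 7989 at 5 hpf (log2 change -3.06), and a signal of 2812 at 12 hpf, against 15397 at 5 hpf (log2 change -2.45). The G1 cyclin gene ccne1, the licensing genes cdc6 and gmnn and the phosphatase gene cdc25b had log2 changes of -4.26, -3.35, -3.41 and -2.84. Genes of the replicative helicase did not follow: mcm6 and mcm3 rose with log2 changes of 1.62 and 1.22, while mcm2, mcm5, mcm4 and mcm7 lay between -0.37 and 0.95. The clamp gene pcna had a log2 change of -0.07. The largest rise was that of the cyclin-dependent kinase inhibitor gene cdkn1ba (log2 change 3.08), with a signal of 100.3 at 12 hpf, against 11.9 at 5 hpf, and the kinesin genes kif11 and cenpe had log2 changes of 1.69 and 2.13.

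Of 25 clock genes and genes known to respond to the glucocorticoid receptor, 12 fell and 2 rose, against 27.1% and 23.1% of all genes. The stress gene ddit4 had a signal of 84.8 at 12 hpf, against 1695 at 5 hpf (log2 change -4.32), the period genes per3 and per1b had log2 changes of -4.02 and -2.72, and the cryptochrome genes cry1b, cry5, cry3a and cry2 ones of -3.47, -2.67, -2.64 and -1.41. The receptor gene nr3c1 itself rose, with a signal of 115 at 12 hpf, against 29 at 5 hpf (log2 change 1.99), and nr1d2b had a log2 change of 2.06. In the joint normalization per1b had signals of 738, 114 and 1987 at 5, 12 and 24 hpf, so it was high again at the last stage. In cortisol-treated embryos this list had a median log2 change of 0.74 over 17 genes. Over the 16 genes measured in both channels the medians were 0.73 in cortisol and -0.18 in vehicle embryos. The genes with the largest decreases in vehicle embryos, ddit4, per3, cry1b, tefb and per1b, were not among them.

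The stage labels were checked against genes of differentiated tissues that are not due by 12 hpf. Of 28 on the array, 7 were below the cutoff at both stages and 21 above it at 1 stage or more, beside 21886 of 27216 gene names. Being above the cutoff thus did not set these genes apart, so the check does not decide on the labels. Of the 15 measured at both, 3 rose and 2 fell, against 23.1% and 27.1% of all genes. Above the cutoff at 12 hpf only were 3, of which 2 were at least 2-fold higher by their bound. Another 3 were above it at 5 hpf only, of which 1 was at least 2-fold lower. The pituitary genes pomca and lhb had log2 changes of -0.01 and -0.17, with signals under 20 intensity units. The genes that rose were the digestive enzyme genes ela2l and prss59.1, with log2 changes of 2.7 and 1.53, and the photoreceptor gene pde6c, at 1.54. The rod opsin gene rho fell, with a signal of 61.8 at 12 hpf, against 414 at 5 hpf (log2 change -2.74), and its log2 change had the other sign in the cortisol channel (0.58).

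Some of the largest changes lay outside these lists. Among the 15 largest rises with probes of 1 direction, and with the same direction in the red channel where it measured the gene (it did not for pcdh19 and hoxb1b), were the nuclear receptor gene nr2f5 with a signal of 8935 at 12 hpf, against 9.3 at 5 hpf (log2 change 9.91), the myosin light chain gene myl10 at 9.91, pmepa1 at 9.84, the membrane protein gene emp2 at 8.69, the calcium-binding gene pvalb9 at 8.67, the protocadherin gene pcdh19 at 8.51, the transglutaminase gene tgm1l4 at 8.5 and the hairy-related gene her2 at 8.14. The others were he1.2, six3b, fn1b, myf5, fabp1b.1, hoxb1b and tbx6, described above. All 15 had signals under 50 intensity units at 5 hpf.

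The largest fall was that of the carbonyl reductase gene cbr4, with a signal of 34.5 at 12 hpf, against 55174 at 5 hpf (log2 change -10.65), from 1 probe. Beside ccna1, nanog, wee2, mxtx2, cth1 and mixl1, the other large falls were fam113 at a log2 change of -7.27, wdr48a at -7.18, the small GTPase gene rhoq at -7.14, the nucleoside phosphorylase gene pnp4a at -6.99, the RNA-granule gene lsm14b at -6.67, znf326 at -6.56, ccnp at -6.45 and tmprss4b at -6.26. Of these, rhoq and pnp4a were higher again later. At 5, 12 and 24 hpf rhoq had 1736, 13.5 and 199, and pnp4a had 1393, 12.3 and 93.4. In the cortisol channel 3 of the 15 had a measured log2 change: nanog at -6.25, mixl1 at -5.69 and lsm14b at -5.85. Their sign was fixed in advance, since a gene with the opposite sign in that channel was not named among the 15.

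Among genes above the cutoff at 12 hpf only, 1049 of 2221 were at least 2-fold higher by their bound and 571 at least 4-fold. Among those at 5 hpf only, 907 of 2307 were at least 2-fold lower and 370 at least 4-fold. Among genes with a RefSeq symbol, the largest bounds at 12 hpf were those of egr2b, the Notch target her4.4 (at least 412-fold), the growth factor gene mdkb (372-fold), mab21l2, he1.1 and the growth factor binding gene igfbp5a (296-fold). At 5 hpf, among genes with a RefSeq symbol that is not a clone or locus name, the largest bounds beside those of ndr1 and sebox were those of kank1b (at least 56.6-fold lower at 12 hpf), fkbp6 (48.3-fold), the caspase gene casp23 (42.7-fold) and the sialyltransferase gene st8sia7.1 (36.5-fold).

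Some bright genes had a log2 change under 0.1 in size. The translationally controlled tumour protein gene tpt1 had a signal of 43681 at 12 hpf, against 42885 at 5 hpf, with a log2 change of 0.03 but probes from -0.61 to 0.77. The cold-inducible RNA-binding gene cirbpb had a signal of 30724 at 12 hpf, against 32305 at 5 hpf (log2 change -0.07), the elongation factor gene eef1a1b had a log2 change of -0.06, the tubulin gene tuba8l4 one of 0.05, the cyclophilin gene ppib one of 0.00 and the nucleolar gene nop56 one of -0.09. The Eph receptor gene ephb2b and the SoxB1 gene sox19a were alike, with log2 changes of 0.00 and 0.03.

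The same stage change was read in cortisol-treated embryos from the red channel, which was much dimmer at 12 than at 5 hpf, with a 95th percentile of 331 against 7334 intensity units. Of the genes that rose in vehicle embryos and were measured at both stages in the red channel, 3089 of 3127 were higher there too and 2756 by at least 2-fold. Of those that fell, 2226 of 2379 were lower and 1695 by at least 2-fold. These 3127 and 2379 genes are part of the 3996 that rose and the 4680 that fell, and the rest had no red change. At 12 hpf 39.3% of red probes were above the cutoff, against 73.9% at 5 hpf. Of all 10525 shared genes, 3583 were at least 2-fold higher in the red channel and 2084 at least 2-fold lower. Over the 10525 shared genes the red median log2 change was 0.28. Both channels share the arrays and their slides. Genes past 2-fold in opposite directions numbered 4 among those that rose in vehicle and 36 among those that fell.

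**Figure D5:**
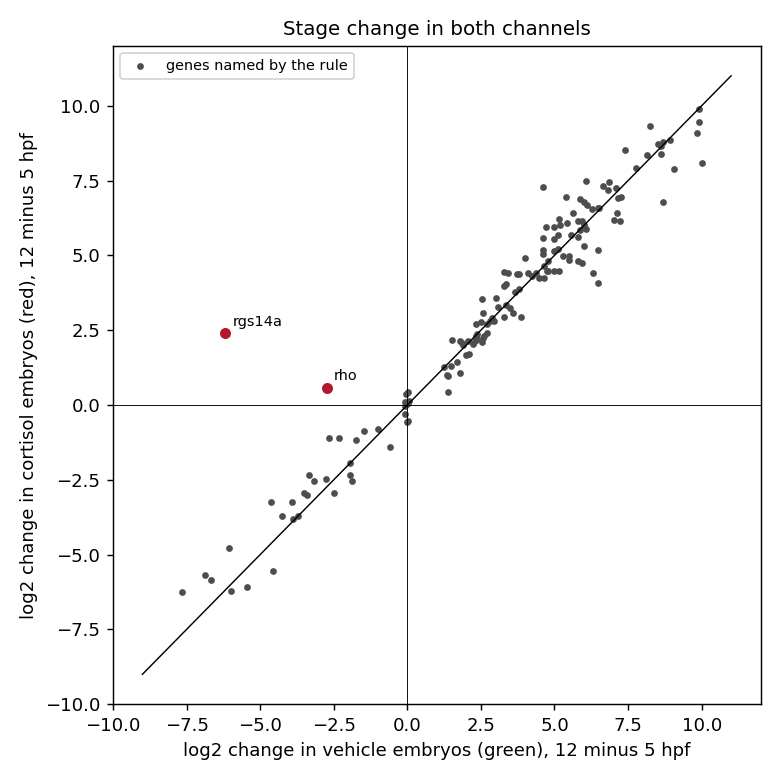
Log2 change, 12 minus 5 hpf, in cortisol embryos (red channel, vertical) against vehicle embryos (green channel, horizontal) for the 159 genes named by rule and measured in both, with the line of equal change. Of these, 152 have the same sign and 133 lie within 1 log2 unit of the line, with rgs14a and rho standing off it. This count is in part fixed by the choice of genes. The 15 largest changes each way were named only if the red change, where measured, had the same sign.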

How the data were processed

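Total RNA (200 ng) of whole embryos was labelled, per the labels, with Cy3 where it came from vehicle embryos. Cortisol RNA always carried Cy5, so dye and treatment are not balanced. Agilent Feature Extraction made the scanner files, per the submitters' processing notes, in a version not given there. The deposited files hold median signal and local background intensity per spot. At 12 hpf 99.3% of the values end as a mean over 3 arrays would, and at 5 hpf 99.8% end as a mean over 4 would, so each value may stand for several arrays.

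Green median signal minus background was averaged over spots of a probe and quantile-normalized over the 43603 gene probes of the 12 and 5 hpf arrays. A probe passed if it exceeded the average of 153 negative control spots by more than 2 SD, and signals under the lowest measured one were set to it. A gene's log2 change is the mean over its probes measured at both stages. For genes above the cutoff at 1 stage the bound sets the bright signal against that floor or the probe's own signal, whichever is higher. Accessions named 25258 probes through RefSeq (GRCz12tu), symbols 2766 and synonyms 1682, and 13897 kept the file's name. The steps were checked on simulated data.

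Members and gene lists were chosen with earlier results of these data known. Among genes with a RefSeq symbol (clone and locus names left out), the rule named the 15 with the largest change in each direction, up to 6 members per list by size of change, the 6 largest bounds each way, all SoxB1 genes and 10 bright flat genes. For the 15 each way, all probes measured at both stages had to share a sign, as did the red-channel change where measured. List members named beyond it were chosen for their role after their values were seen. Alternatives were another scaling, background, filter, probe summary, gene naming, the deposited processed signal and the red channel. Python 3.11.15, pandas 2.3.3, numpy 2.4.6, R 4.3.3 and limma 3.58.1 (normexp) were used.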

Additional observations from a re-analysis of the deposited data

Results flagged for a closer look

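One gene named above moved by more than 2-fold in opposite directions in the 2 treatment groups. The regulator of G-protein signalling gene rgs14a had a log2 change of -6.18 in vehicle embryos and 2.4 in cortisol embryos. Its vehicle signal was 8.5 at 12 hpf, against 616 at 5 hpf, so that it stood at the edge of the cutoff at the later stage. With 1 set of values per stage and 1 probe the difference was not tested, and the red channel was much dimmer at 12 than at 5 hpf, whose part in it was not tested.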

How the results depend on the processing

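Since no spread between replicates could be had, a list's median counted as moved when it shifted by more than the SD between probes of a gene (0.935 log2 units), and a count when it shifted by over 1.5 times. Scaling to the 75th percentile, normalizing the 3 arrays together and the deposited processed signal moved no count and no list median. Of 316 genes followed one by one, 134 shifted by more than that SD with normexp and 125 with no background subtracted, and none past 2-fold turned direction. A list's median was not taken over fewer than 3 members, and genes above the cutoff at 1 stage were not counted where every probe or only probes bright at both stages were kept. No paired analysis was possible because each stage has 1 set of values. Genes higher at 12 hpf numbered 2467 with normexp, and 1754 with both stages over the median signal. Genes lower numbered 2987 with no background subtracted, 2649 with normexp, 1988 with both stages over the median signal and 2084 in the red channel. In the red channel 427 genes were above the cutoff at 12 hpf only and 9140 at 5 hpf only. Among genes past 2-fold as reported, directions turned for psma6b with the array's own gene names (log2 change -2.62), and in the red channel for rgs14a (2.40), rho (0.58) and szl (-0.15), the last 3 also over shared genes. Among genes under 2-fold, hoxb8a reached 2.26 and hoxc6a 1.35 with no filter, hoxb8a 1.72 with linear means and cryba2a 7.64 in the red channel.

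The list medians that moved, as log2 changes, were as follows. With no background subtracted: neural plate 1.82, notochord 1.64 and matrix 1.58. With normexp: oocyte -2.39, germ plasm -2.02, neural plate 1.64, Hox 0.82, notochord 1.5 and matrix 1.26. With both stages over the median signal: oocyte -2.21, contractile 0.53, neural plate 1.01, Hox -0.84, notochord -0.79, blood -0.98, hatching gland 1.23 and yolk 0.86. There Hox (3 genes) and notochord (7 genes), past 2-fold in the main run, turned direction. Blood, at 0.89 in the main run, changed sign as well. At 3 SD: eye field 3.31 and hatching gland 1.61. With no filter: SoxB1 1.7, Hox 3.46, hatching gland 3.8 and matrix 1.49. With linear means: Hox 3.19, and with the brightest probe: Hox 2.78. With the array's own gene names: notochord 4.61, hatching gland 1.61 and yolk 0.89. In the red channel: oocyte -2.04, margin 1.95, somite 3.36, contractile 3.26, neurogenesis 4.24, Hox 4.61, eye field 4.6, blood 2.22, hatching gland 5.9, heart and kidney 1.12, clock and receptor 0.74 and adult marker 2.29. Clock and receptor, at -0.98 in the main run, and heart and kidney, at -0.06, changed sign there.

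Further alternatives were chosen after seeing the data. With both stages over 10 times the cutoff 1990 genes were higher and 2167 lower, and the medians that moved were oocyte -2.47, neural plate 1.2, Hox -0.84, notochord -0.52, blood -0.98, hatching gland 1.23 and yolk 0.83. Hox and notochord again turned, and blood again changed sign. Over the genes measured in both channels 2084 were lower in cortisol and 2379 in vehicle embryos. There the vehicle medians that moved were contractile 3.16, neurogenesis 2.58, Hox 3.66, eye field 3.94 and hatching gland 5.59, and the cortisol medians with a value other than above were somite 3.16, neurogenesis 2.91, Hox 4.47, eye field 5.26, clock and receptor 0.73 and adult marker 1.38. The cause of these shifts was not tested. In the main run the floor acted only on genes above the cutoff at 1 stage, whose folds are given as lower bounds.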

Other observations

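Gene families were also grouped by the letters of their RefSeq symbol after their values were seen, so they are descriptions. The few given here were picked from many families with at least 8 measured genes. Over all genes 23.1% were higher by 2-fold and 27.1% lower, and each family is to be read against these shares. Among 8 T-box (tbx) genes 5 rose and 2 fell, with a median log2 change of 3.04. For 8 homeobox genes of the nkx family 7 rose and 0 fell (median log2 change 3.45), and for 11 Wnt receptor genes (fzd) 8 rose and 1 fell (median log2 change 1.5). Mitochondrial ribosomal protein genes named mrpl moved in the direction of their cytoplasmic counterparts, with 23 of 42 higher by 2-fold, 1 lower and a median log2 change of 1.04. Those named mrps moved less, with 8 of 27 higher by 2-fold, beside 23.1% of all genes. None of the mrps genes was lower by 2-fold, and their median log2 change was 0.77. Zinc finger genes named znf were more often lower than higher, with 34 of 87 lower by 2-fold and 10 higher, beside 27.1% and 23.1% of all genes (median log2 change -0.59).

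Linker histone genes, also picked out after their values were seen, moved in opposite directions. The maternal h1m had a log2 change of -5.98, while h1-10 had a signal of 549.8 at 12 hpf, against 27.1 at 5 hpf (log2 change 4.34). Linker histones bind the DNA between nucleosomes.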
